A study of Mus musculus with 4 samples.

Results

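Potassium channel subunits were examined in the embryonic telencephalon of mice with and without a conditional deletion of STING. Members were all protein-coding genes whose symbol is Kcn followed by 1 or 2 letters and a number. There were 86 such genes among the 27293 genes of the count table, covering pore-forming subunits and the auxiliary proteins that bind them. RNA came from telencephalic tissue of C57BL/6 embryos at embryonic day 13 (E13) and was sequenced in 4 libraries, 2 labelled WT and 2 labelled with the genotype STINGf/f;Nestin-Cre, called cKO here. In the cKO embryos, Cre recombinase driven by the Nestin promoter acts on floxed STING alleles in neural progenitors and the cells they give rise to. Vessels, meninges and blood are part of such tissue and derive mostly from other lineages. The labels do not say which alleles the WT embryos carried, and the title of WT 2 has nes where that of WT 1 has wt. Whether WT 2 carries Nestin-Cre is not known, so a WT mean here may join embryos with and without Cre. Nothing states that the libraries of a group came from separate litters or pools, so p-values measure the spread between these samples. The counts summed to 17209654 (WT 1), 18533391 (WT 2), 18237989 (cKO 1) and 18091688 (cKO 2). With these depths a count of 0 allows up to 3 counts, which is 0.163 to 0.173 CPM (counts scaled to equal library size), for counting error alone.

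Potassium channels let potassium ions leave or enter a cell and so set its resting voltage and shape its electrical activity. Voltage-gated channels are built from 4 alpha subunits, inward rectifiers hold the resting potential, 2-pore-domain channels carry background current, and a further group opens with internal calcium or sodium. Auxiliary subunits change the gating and trafficking of the pore they bind. In embryonic cortex these genes are used by progenitors, by young neurons that start to become excitable, and by vessels and choroid plexus.

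The targeted gene and the tissue markers were read first, because they check the labels. STING, listed under its older symbol Tmem173 on chromosome 18, had 20 (WT 1), 19 (WT 2), 18 (cKO 1) and 22 (cKO 2) counts. Its gene-level count did not separate the groups, so genotypes are those of the labels. Cortical markers were abundant in every library. The 9 markers of cortical neurons summed to 4968 CPM (WT 1), 5742 (WT 2), 5370 (cKO 1) and 4819 (cKO 2), with Tubb3 the most abundant, and 0 of 9 were called. The 9 radial glia markers, led by Vim, summed to 2388, 2231, 2408 and 2450 CPM in the same order. The 5 markers of intermediate progenitors, led by Neurog2, summed to 812, 857, 905 and 863 CPM, and the 5 of Cajal-Retzius cells, led by Reln, to 331, 392, 382 and 341 CPM. None of these 3 lists held a called gene. Both cKO libraries were higher for Btg2, Neurog2 and Eomes, 3 of the 5 intermediate progenitor markers, and for 1 radial glia marker, Nes. Log2 fold changes of these were 0.07, 0.08, 0.20 and 0.17, with standard errors of 0.14 to 0.15. Btg2 was nearly tied, at 112.43 CPM in WT 1 and 112.48 in cKO 1. Both cKO libraries were lower for Syt1 (-0.32) and Snap25 (-0.29), 2 of the 9 neuron markers (22.2%), and for 1 Cajal-Retzius marker, Calb2 (-0.29). Of all genes 11% were higher and 10.8% lower in this way.

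Some libraries stood apart in markers of other tissues. WT 1 held more choroid plexus and meningeal marker RNA than the other libraries. Of 10 choroid plexus markers 8 were in the table, and they summed to 62.3 CPM (WT 1), 17.5 (WT 2), 16.2 (cKO 1) and 16.8 (cKO 2), with Otx2 the most abundant, while Ttr and Clic6 were not analysed here. Folr1 was at 0 counts in WT 2. Of the 11 meningeal and mesenchymal markers, led by Col3a1, the sum was 306 CPM (WT 1), 57.3 (WT 2), 81.2 (cKO 1) and 43.9 (cKO 2). Each of these lists held 2 genes called lower in cKO, Aqp1 and Otx2 in the former and Col1a1 and Col1a2 in the latter. Without WT 1 their log2 fold changes were -0.67 for Aqp1, -0.31 for Otx2, -0.11 for Col1a1 and 0.21 for Col1a2, and none was called. The 7 blood markers, led by Hbb-y, summed to 1008, 535, 431 and 658 CPM. The 7 endothelial markers, led by Kdr, summed to 191, 141, 124 and 121 CPM. All 7 had a log2 fold change below 0, with a median of -0.54. Both cKO libraries were lower for 4 of them (57.1%), against 10.8% of all genes. Flt1 and Cdh5 had an unadjusted p under 0.05, and 0 were called. The 7 mural markers, led by Notch3, summed to 272, 199, 212 and 225 CPM, and the 6 microglia markers, led by Csf1r, to 36.2, 26.6, 22.6 and 27.9 CPM. The log2 fold change was below 0 for 6 of the mural markers (median -0.38) and for all 6 microglia markers (median -0.24). Both cKO libraries were lower for 1 mural marker (14.3%) and 2 microglia markers (33.3%), and 0 were called. The 9 ventral telencephalon markers, led by Dlx1, were lowest in cKO 1, at 1030, 986, 658 and 1015 CPM. All 9 had a log2 fold change below 0, with a median of -0.24. Both cKO libraries were lower for 2 of them (22.2%), Gad1 and Gad2, against 10.8% of all genes. Gad1 had an unadjusted p under 0.05, and 0 were called. The 6 diencephalon and midbrain markers found, led by Lhx9, summed to 51.5, 38.7, 46.8 and 30.4 CPM. The 4 Y-linked genes, led by Kdm5d, summed to 157, 0, 164 and 103 CPM, so WT 2 lacked their reads. By these genes male tissue was in WT 1, cKO 1 and cKO 2 but not in WT 2. Embryo sex was thus not balanced between the groups, and it was not a covariate.

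Levels of the subunit genes were compared first. The count table holds only genes with a read in at least 1 library, so genes without reads are not among the 86. Of the 86 genes, 73 had more than 3 counts in every library and 66 had at least 10. Levels between genes were taken as CPM per kilobase of exon, on counts normalized by the trimmed mean of M-values (TMM), so that long genes are not favoured. Kcnip3, a calcium-binding protein of the KChIP family, was among the most abundant, at 12.6 ± 0.968 CPM per kilobase (SD over all 4 libraries, n = 4). Its range over the libraries did not overlap with that of Kcng1, which had 8.40 ± 0.836. Lower down, each gene in the plot of levels overlapped with its neighbour there. Kcnn1 was at 7.58 ± 1.30, Kcnj11 at 7.21 ± 1.06 and Kcnh4 at 5.93 ± 1.45 CPM per kilobase. The 10 highest genes made up 46.1% of the summed level of all 86, whose median was 0.922.

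**Figure D1:**
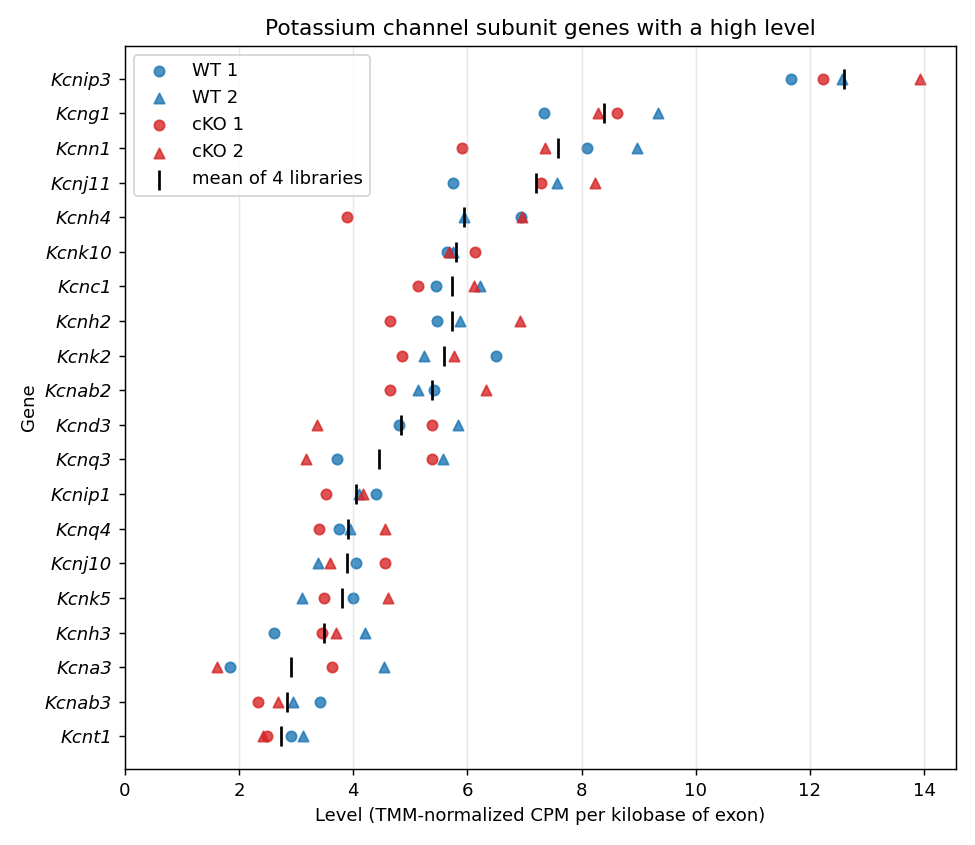
Level of 20 abundant subunit genes in CPM per kilobase of exon (x axis) for WT 1 and WT 2 in blue and cKO 1 and cKO 2 in red, with black bars for the mean of the 4 libraries. Kcnip3, with a mean of 12.6, stands clear of the other genes drawn, and the libraries of both groups lie among each other for most genes.

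Each gene was then compared between the cKO and WT libraries with edgeR's quasi-likelihood test, at the thresholds used in the study, a 2-fold or larger change together with an unadjusted p no higher than 0.05. A filter on low counts left 16145 genes, among them 71 of the 86 members. Among all genes tested 0.669% were called lower and 0.142% higher in cKO. The excess of lower calls was not kept in the fit without WT 1, where more genes were called higher than lower. Of the members 1 was called lower, Kcne2, and 0 were called higher. At a Benjamini-Hochberg adjusted p under 0.05, edgeR called 0 members and 0% of all genes. At an unadjusted p under 0.05 there were 2 members, Kcne2 and Kcnd2, where 199 of all genes (1.23%) had such a p. Such genes numbered 535 with the replicate block, 758 with no filter and 127 with DESeq2. There were also more of them in the fits that left out WT 2, cKO 1 or cKO 2, and fewer without WT 1. DESeq2 called 0 members. Lower values were more frequent than higher ones among members. The log2 fold change was below 0 for 48 of 71 members (67.6%), against 52.1% of all genes. Its median was -0.14 over the members and -0.01 over all genes. Both cKO libraries ranked under both WT libraries for 14 members (19.7%), where 10.8% of all genes did so. Both ranked higher for 1 member, Kcnk3 (1.41%), against 11% of all genes. Upper-quartile scaling made that number 2.

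Of the 71 tested genes, 3 reached the limit of the filter in both WT libraries but not in both cKO libraries (Kcne4, Kcng2 and Kcnj4), and 2 did the reverse (Kcne3 and Kcnk6). In 3 more, Kcne2, Kcnq1 and Kcns1, neither group reached it in both libraries, and Kcne2 passed through WT 1 and cKO 1. The 15 genes that were not tested had at most 21 counts in any library. They are Kcne1, Kcng3, Kcnj13, Kcnj15, Kcnj16, Kcnk4, Kcnk7, Kcnk9, Kcnk13, Kcnk18, Kcnmb1, Kcnmb3, Kcnn4, Kcns3 and Kcnv2. With no filter on low counts all 86 members were tested, and none of these 15 was called. Without WT 1 the filter passed Kcnk4, which had 3 (WT 1), 21 (WT 2), 6 (cKO 1) and 2 (cKO 2) counts, and it was called lower in cKO. It passed only through WT 2, the library where it was high, so that call is no support.

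**Figure D2:**
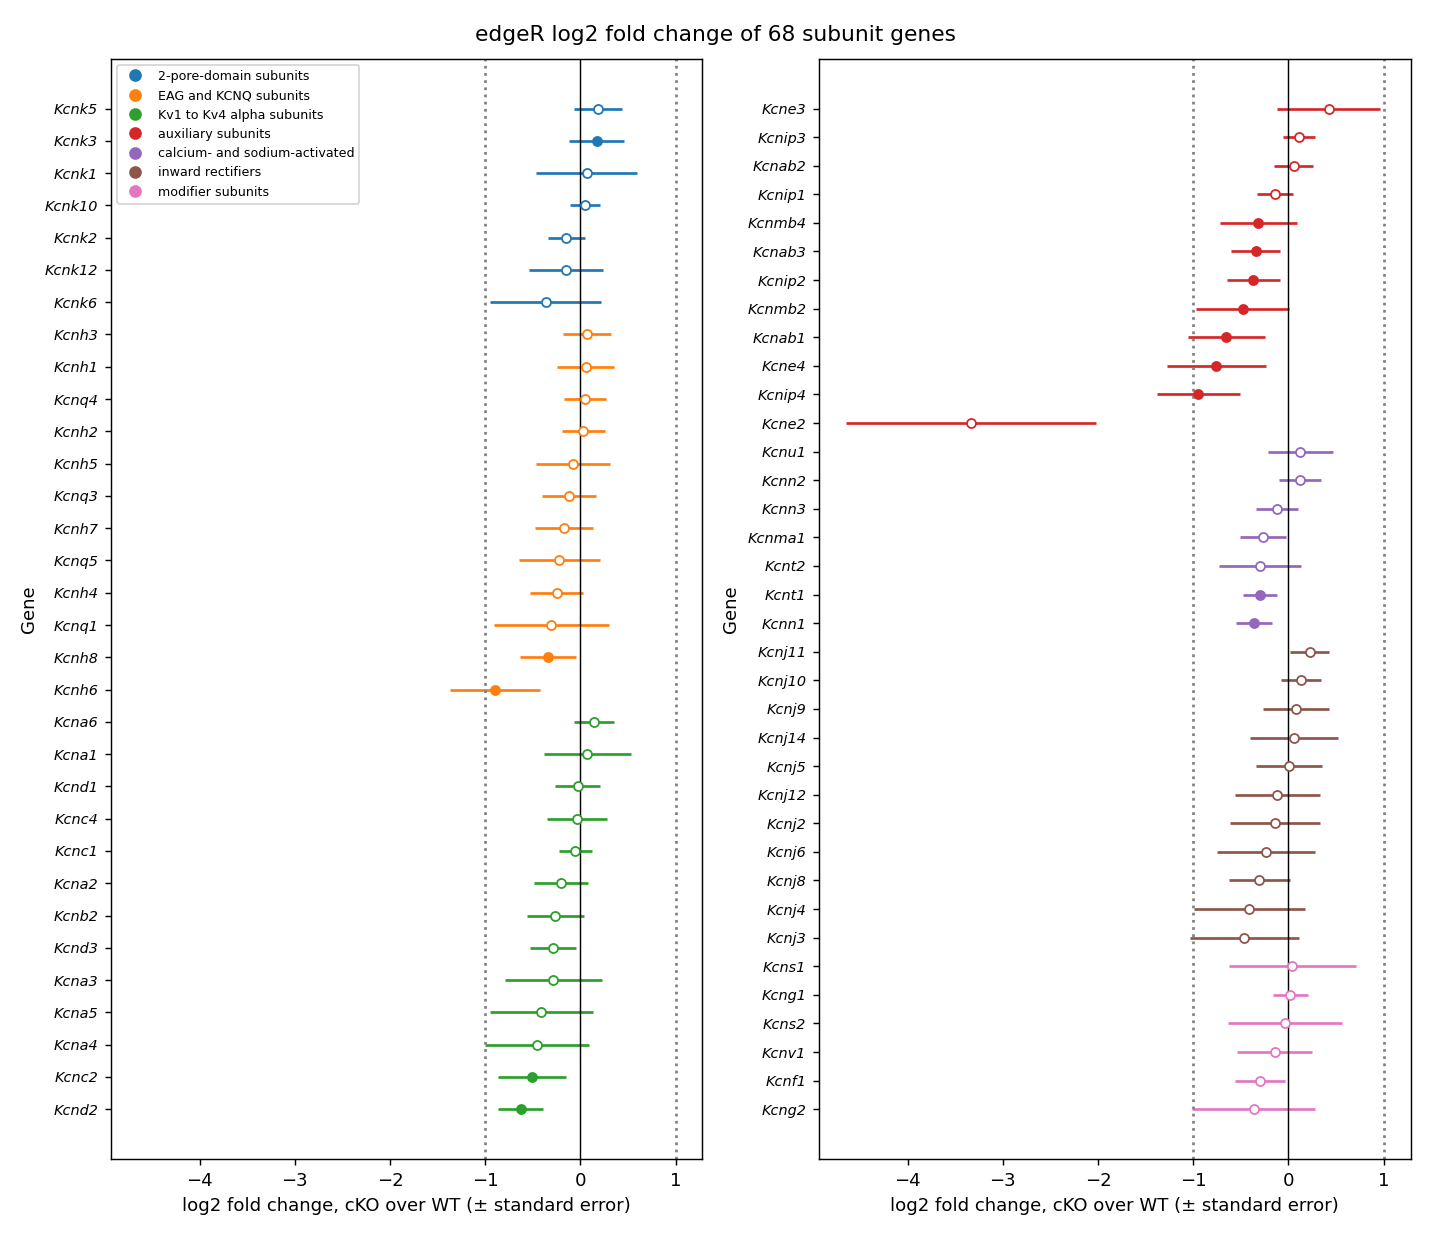
The log2 fold change of cKO over WT (x axis) for 68 of the 71 subunit genes tested, coloured by class, with bars for 1 standard error and dotted lines at a 2-fold change. Filled points are the 14 genes drawn whose groups do not overlap. All genes drawn except Kcne2, at -3.33, lie within a 2-fold change.

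Kcne2 (ENSMUSG00000039672; chromosome 16, plus strand, 92292389 to 92298129) encodes a small auxiliary subunit that is abundant in choroid plexus epithelium. It had 183 (WT 1), 4 (WT 2), 13 (cKO 1) and 6 (cKO 2) counts. WT 1 alone was high, and WT 2 was the lowest of all libraries, so the groups overlapped. Its level was 5.37 ± 7.29 CPM in WT and 0.523 ± 0.265 CPM in cKO (SD, n = 2 each). The log2 fold change came to -3.33 (standard error 1.31), with a Benjamini-Hochberg adjusted p = 0.9999 in the edgeR fit. Without WT 1 it was 1.24 and not called, and without WT 2 it was -4.30 and called. It was -3.96 without cKO 1, -2.89 without cKO 2 and -3.35 with DESeq2, and in these 3 it was not called. The call was kept with the other scalings, with no filter and with the replicate block. Its adjusted p in edgeR was under 0.05 without WT 2 and with no filter, and in no other setting run. Kcne2 left the test when at least 10 counts in every library were asked for. Kcnj13, an inward rectifier that is likewise abundant in choroid plexus, had 9 (WT 1), 1 (WT 2), 2 (cKO 1) and 0 (cKO 2) counts. It too was highest in WT 1. Both genes shared with the summed choroid plexus markers that WT 1 was highest. Over the other libraries Kcne2 had the reverse order of that sum. The part of that tissue in the result for Kcne2 was not tested. In bulk tissue, fewer cells of a type and less RNA per cell cannot be told apart.

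Among voltage-gated alpha subunits of the Kcna, Kcnb, Kcnc and Kcnd families, all 15 genes were tested and 0 were called, with 12 below and 3 above a log2 fold change of 0. Kcnd2 (ENSMUSG00000060882; chromosome 6, 21215503 to 21729805), a pore subunit of the transient A-type current, had 224 (WT 1), 254 (WT 2), 176 (cKO 1) and 137 (cKO 2) counts. Both cKO libraries were below both WT libraries. Its level was 13.3 ± 0.645 CPM in WT and 8.64 ± 1.38 CPM in cKO (SD, n = 2 each), a log2 fold change of -0.63 with a standard error of 0.24. This is short of a 2-fold change, and the adjusted p = 0.9999 in edgeR's fit. With single libraries left out the log2 fold change ran from -0.80 to -0.46. Kcnd3, its close relative, had 801, 1030, 943 and 576 counts, and only cKO 2 stood low. The log2 fold change of Kcnd3 was -0.28, and 0.03 without cKO 2. Kcnc2, a subunit of fast-spiking neurons, had 60, 58, 48 and 36 counts, with both cKO libraries lower and a log2 fold change of -0.51 (standard error 0.35). Kcnc1, abundant per kilobase and likewise used by fast-spiking neurons, had 897, 1084, 890 and 1035 counts, and its groups overlapped. Kcnb2, a delayed rectifier subunit, had 160, 185, 184 and 107 counts. The low-threshold subunits Kcna1, with 69, 102, 132 and 50 counts, and Kcna2, with 170, 227, 212 and 136, were both lowest in cKO 2 and did not separate the groups. Kcna6 had the highest log2 fold change of the class, 0.14.

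The EAG and KCNQ families held 13 genes, all tested, 0 called, and supplied 25.5% of the summed level per kilobase of all members. Kcnq3, a subunit of the M current that restrains repetitive firing, had 951 (WT 1), 1509 (WT 2), 1447 (cKO 1) and 834 (cKO 2) counts. WT 2 and cKO 1 were high and the other two low, so the spread within a label exceeded the difference between labels. Kcnh2, which encodes the hERG channel, had 461, 524, 412 and 600 counts, and Kcnh4 had 477, 433, 281 and 492. Neither separated the groups. Kcnh6, an ERG-type subunit with few reads, had 22, 28, 16 and 11 counts. Both cKO libraries were lower, with a log2 fold change of -0.90 and a standard error of 0.47. Kcnh8 likewise did not overlap, at 88, 113, 80 and 80 counts.

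The modifier subunits do not form channels by themselves but join Kv2 subunits. Of 9 genes 6 were tested and 0 called. Kcng1, abundant per kilobase, had 575, 776, 711 and 667 counts and a log2 fold change of 0.02. Kcnf1 had 151, 196, 128 and 156 counts, and Kcnv1 had 75, 100, 108 and 52. The groups overlapped in all 3.

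The inward rectifiers include the pores of ATP-sensitive channels, which are made of a Kcnj subunit and a sulfonylurea receptor. Of 14 genes 11 were tested, with 6 below and 5 above a log2 fold change of 0 and 0 called. Kcnj11 (chromosome 7, 46093953 to 46100764) had 367 (WT 1), 512 (WT 2), 491 (cKO 1) and 541 (cKO 2) counts. The receptor gene Abcc8 lies 3759 bases from Kcnj11 and had 533, 787, 869 and 734 counts. WT 1 was the lowest library for both, and the log2 fold changes were 0.22 for Kcnj11 and 0.27 for Abcc8. Without WT 1 they were 0.038 and 0.050, and without WT 2 they were 0.45 and 0.54. Kcnj8 (chromosome 6, 142564837 to 142571614) and Abcc9 form the vascular pair and lie 16248 bases apart. Kcnj8 had 96, 115, 70 and 102 counts and a log2 fold change of -0.30 (standard error 0.32), and its groups overlapped. Without cKO 1 it was -0.042 and without cKO 2 it was -0.61. Abcc9 had 313, 255, 174 and 224 counts, both cKO libraries lower, and a log2 fold change of -0.53 (standard error 0.25). Abcc9 is itself one of the mural markers given above, whose part in these values was not tested. Kcnj10, the channel of glia, had 381, 337, 451 and 347 counts. Kcnj3, a G-protein-gated subunit, had 126, 90, 129 and 31 counts, and cKO 2 stood alone. Its log2 fold change was -0.46, -1.80 without cKO 1, when it was called, and 0.23 without cKO 2.

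Of 12 genes of the 2-pore-domain family 7 were tested, 0 were called, and 4 had a log2 fold change above 0. This was the only class whose median log2 fold change was above 0, at 0.05. Kcnk10 and Kcnk2 encode channels opened by membrane stretch and lipids. Kcnk10 had 862, 929, 984 and 891 counts, and Kcnk2 had 559, 477, 439 and 509. Kcnk3, an acid-sensitive background channel, reached 74 and 89 counts in WT against 92 and 93 in cKO, the 1 member with both cKO libraries above both WT libraries. Its log2 fold change of 0.17 was smaller than its standard error of 0.29. Kcnk5 had 237, 194, 217 and 280 counts.

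Of the 8 genes of channels gated by calcium or sodium 7 were tested and 0 called. Kcnn1, a small-conductance calcium-activated subunit, had 646 (WT 1), 758 (WT 2), 496 (cKO 1) and 603 (cKO 2) counts. The groups did not overlap, with a log2 fold change of -0.36 and a standard error of 0.19. Kcnt1, a sodium-activated subunit, had 482, 545, 432 and 410 counts and a log2 fold change of -0.30 (standard error 0.17), again without overlap. Kcnn2 had 307, 382, 438 and 320 counts. Kcnma1, the large-conductance BK pore, had 267, 393, 315 and 238 counts. The groups of Kcnn2 and Kcnma1 overlapped.

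Both cKO libraries were lower for 7 of the 12 auxiliary genes tested, against 19.7% of members tested and 10.8% of all genes. These 7 were among the 14 members with that order. It was also found for 3 of 15 voltage-gated alpha subunits and 2 of 13 genes of the EAG and KCNQ families. Of the channels gated by calcium or sodium 2 of 7 tested had it, and of the other classes 0. Of 15 auxiliary genes 12 were tested, and 9 of these had a log2 fold change below 0, with a median of -0.36. The 9 and the median include Kcne2, while the 7 do not, and all of them include genes with few reads. Kcnip4 (chromosome 5, 48389502 to 49524907), which binds Kv4 channels, had 44 (WT 1), 36 (WT 2), 26 (cKO 1) and 16 (cKO 2) counts. The log2 fold change came to -0.95 (standard error 0.44). Kcnip2, another Kv4 partner, had 139, 161, 99 and 135 counts and a log2 fold change of -0.37 (standard error 0.28), which was -0.15 without cKO 1 and -0.62 without cKO 2. Kcnab1, a beta subunit of Kv1 channels, had 37, 33, 22 and 23 counts, and Kcnab3 had 170, 155, 122 and 137. Kcne4 reached 16 and 16 counts in WT against 8 and 11 in cKO, Kcnmb2 had 24 and 16 against 14 and 15, and Kcnmb4 had 34 and 35 against 33 and 23. Each of these 5 genes was lower in both cKO libraries, and none was called. Kcne4 reached the limit of the filter in both WT but not in both cKO libraries, so its order is no support. Kcnmb4 was barely lower in cKO 1, at 1.80 CPM against 1.96 (WT 1) and 1.90 (WT 2). The abundant auxiliary genes were not lower in both cKO libraries. Kcnip3 had 719, 820, 793 and 883 counts and a log2 fold change of 0.11, Kcnab2 had 526, 527, 474 and 631 counts, and Kcnip1 had 475, 468, 400 and 463. Kcne3, with 15, 10, 13 and 21 counts, had the highest log2 fold change of all members, 0.42, with a standard error of 0.54. It was 0.032 without cKO 2 and 0.79 without WT 1.

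The A-type channel is a complex of Kv4 pores, KChIP proteins and the membrane proteins Dpp6 and Dpp10. Dpp10 had 226 (WT 1), 260 (WT 2), 198 (cKO 1) and 176 (cKO 2) counts, with no overlap and a log2 fold change of -0.39 (standard error 0.22). Dpp6 had 1064, 1285, 889 and 1214 counts, and the groups overlapped. Kcnd1, a further Kv4 pore, had 171, 163, 167 and 164 counts, overlapping groups and a log2 fold change of -0.03. Kcnd2, Kcnip2, Kcnip4 and Dpp10 were thus lower in both cKO libraries, while Kcnd1, Kcnd3, Kcnip1, Kcnip3 and Dpp6 were not. These genes were put together after their values were seen. More widely, 28 of 29 listed partner and potassium transport genes were in the table, 26 were tested, and 0 were called in either direction by edgeR. None of them had an unadjusted p under 0.05. Of the 26, 20 (76.9%) had a log2 fold change below 0, against 52.1% of all genes, with a median of -0.10. Both cKO libraries were lower for 5 (19.2%), against 10.8%. Kctd12, an auxiliary subunit of GABA-B receptors, had 228, 155, 157 and 74 counts and a log2 fold change of -0.76. It was called without WT 2 (-1.03) and without cKO 1 (-1.37), and was -0.40 without WT 1 and -0.31 without cKO 2.

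Other ion channel families were counted in the same way. Of 11 tested voltage-gated sodium channel genes 0 were called, with a median log2 fold change of -0.14, and of 22 calcium channel genes 0 were called, with a median of -0.03. Of 42 genes of glutamate, GABA and glycine receptors 1 was called lower, with a median of -0.23. The log2 fold change was below 0 for 63.6% of the sodium channel genes, 68.2% of the calcium channel genes and 81.0% of the receptor genes. Both cKO libraries were lower for 18.2% of the sodium channel genes, 4.55% of the calcium channel genes and 26.2% of the receptor genes, against 10.8% of all genes. Both were higher for 18.2%, 0% and 4.76%, against 11% of all genes. No difference between the potassium channel genes and these families was tested.

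Libraries with the same label differed for many members. Counts of cKO 2 and cKO 1 were at least 2-fold apart for 11 of 71 members (15.5%), against 8.26% of all genes, and those of WT 2 and WT 1 for 8 (11.3%), against 5.73%. WT 2 was the highest library for 24 members (33.8%), against 17.6% of all genes. The highest was cKO 2 for 16 (22.5%), against 33.6%, cKO 1 for 10 (14.1%), against 23.7%, and WT 1 for 21 (29.6%), against 25.1%. The lowest was cKO 1 for 26 (36.6%), against 27.3%. The lowest library was cKO 2 for 22 members (31.0%), against 33.4% of all genes. Among these, Kcna3 had 61, 159, 126 and 55 counts and Kcnh7 had 493, 567, 642 and 310, and Kcna1, Kcnj3, Kcnq3, Kcnb2 and Kcnv1 had the same lowest library. Of the 9 cortical neuron markers, 6 were lowest and 3 highest in cKO 2. Dcx, with 14875, 20511, 19773 and 9360 counts, and Map2, with 12141, 13177, 13794 and 7139, were among the former. Tubb3, with 30742, 37799, 30974 and 40629, and Stmn2, with 8269, 9553, 8266 and 10503, were among the latter. The ratio of cKO 2 to cKO 1 moved with the transcript. Across the 71 members, Spearman's rho of the log2 ratio was -0.39 with exon length and 0.54 with the GC content of the longest transcript. Across 16098 genes with a length and reads in every library it was -0.30 and 0.60. For WT 2 over WT 1, rho across the members was 0.26 with length and 0.18 with GC content, against 0.088 and 0.15 across all genes. For the log2 fold change of cKO over WT it was 0.09 with length and 0.32 with GC content, against -0.19 and 0.27 across all genes. Genes share their libraries and are not independent. The median log2 ratio of cKO 2 to cKO 1 was 0.29 for the 36 members with exons up to 4685 bases and -0.11 for the 35 longer ones. The part of length or GC content in any difference was not tested, except that offsets corrected for exon length, chosen after seeing the data, left 1 member called and a median of -0.13.

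**Figure D3:**
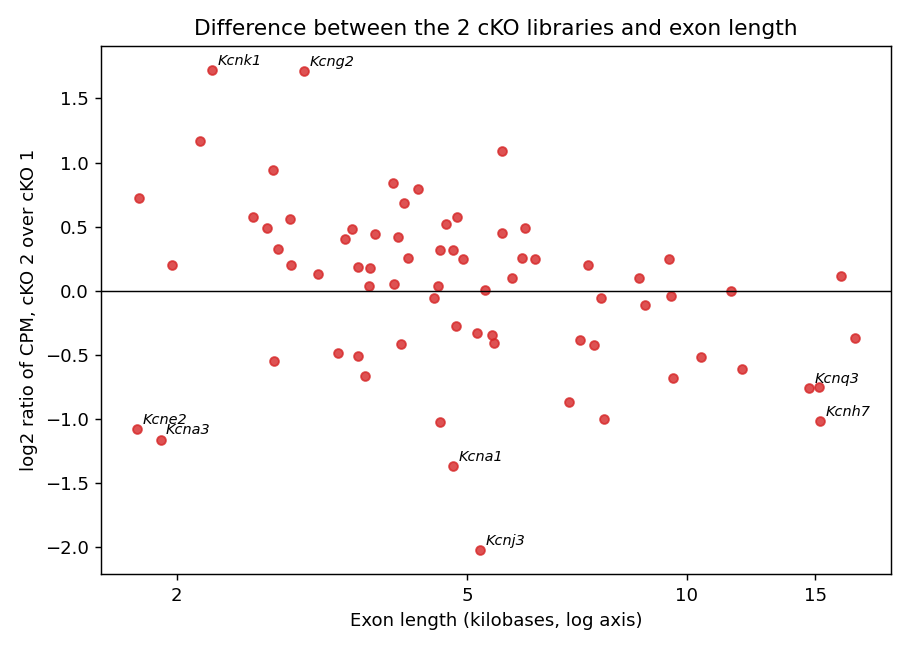
The log2 ratio of CPM between cKO 2 and cKO 1 (y axis) against exon length in kilobases on a log axis (x axis) for the 71 subunit genes tested, 1 point per gene. Longer genes tend to be lower in cKO 2, with a Spearman's rho of -0.39, and Kcnj3 is the lowest.

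Promoters were taken from RefSeq on GRCm38.p6, as windows of 300 bases around a gene's start in that annotation. Such windows were found for 61 of the 86 members, 86 windows in all. Member windows held a median of 9 CG dinucleotides, against 7 over all 32851 windows. The windows of Kcne2 and Kcnj13 are shown because both genes were highest in WT 1, and that of Kcnd2 because it was the other member with an unadjusted p under 0.05. Each is written 5′ to 3′ on the strand of the gene, with CG in capitals. Kcne2 has 2 annotated starts, with 9 and 1 CG. The window of Kcnj13 holds 5 CG and that of Kcnd2 26, a number reached by 16.9% of all windows. RefSeq places the start of Kcnd2 upstream of the position given above, and the window ends before that position.
Kcne2 (plus strand, chr16:92292139-92292438): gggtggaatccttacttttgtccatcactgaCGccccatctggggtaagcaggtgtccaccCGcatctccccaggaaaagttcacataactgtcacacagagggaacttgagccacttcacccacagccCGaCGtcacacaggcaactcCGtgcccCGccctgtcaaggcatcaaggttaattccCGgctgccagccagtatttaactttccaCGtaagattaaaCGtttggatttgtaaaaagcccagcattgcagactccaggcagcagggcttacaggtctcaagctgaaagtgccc
Kcne2 (plus strand, chr16:92295366-92295665): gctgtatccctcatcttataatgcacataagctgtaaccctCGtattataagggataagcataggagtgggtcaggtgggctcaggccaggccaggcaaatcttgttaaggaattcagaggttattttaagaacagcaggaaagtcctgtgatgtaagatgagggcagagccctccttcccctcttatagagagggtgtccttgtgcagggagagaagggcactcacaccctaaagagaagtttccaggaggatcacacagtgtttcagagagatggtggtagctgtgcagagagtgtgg
Kcnj13 (minus strand, chr1:87394680-87394979): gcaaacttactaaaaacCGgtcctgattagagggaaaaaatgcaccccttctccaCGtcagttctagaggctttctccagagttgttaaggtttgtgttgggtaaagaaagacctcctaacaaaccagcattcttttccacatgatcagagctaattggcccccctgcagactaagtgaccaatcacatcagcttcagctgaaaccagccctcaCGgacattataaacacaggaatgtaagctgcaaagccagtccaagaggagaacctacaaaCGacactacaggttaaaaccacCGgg
Kcnd2 (plus strand, chr6:21215096-21215395): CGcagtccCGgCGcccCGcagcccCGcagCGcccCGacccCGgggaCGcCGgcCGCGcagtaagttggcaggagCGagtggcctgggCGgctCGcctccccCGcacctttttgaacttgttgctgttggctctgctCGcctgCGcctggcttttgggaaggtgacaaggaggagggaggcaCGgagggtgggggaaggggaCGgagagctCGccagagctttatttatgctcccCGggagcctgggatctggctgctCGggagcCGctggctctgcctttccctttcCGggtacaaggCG
The letters TAATCC, the core bound by OTX2, were searched on both strands, since Otx2 was also highest in WT 1. They were found in 7.06% of all windows, in 1 of the 86 member windows and in none of these 4, which says only that the letters are not in these windows.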

How the data were processed

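RNA of 4 E13 libraries, 2 labelled WT and 2 labelled STINGf/f;Nestin-Cre, was analysed. The authors extracted total RNA with TRIzol, sequenced it on an Illumina HiSeq platform and deposited a raw read count per gene. The submitters' processing notes name Bowtie2 2.2.3, TopHat2 2.0.12, HTSeq 0.6.0 and the build mm9, but 97.3% of 27232 genes lie within 1 base of a start or end in GENCODE M21, so positions were read as GRCm38. Whether counting used strand is not given in the sources used here, so reads of overlapping antisense genes cannot be told apart, and neither can reads shared between paralogs. Blank rows, 11 of 27304 (0.0403%), were dropped. The authors' fold changes and p-values in the deposited tables were not used. A second deposited table holds the same counts of WT 1 and cKO 1 for the 21342 genes found in both. It holds 11 genes that the first lacks, 0 of them members.

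Counts were fitted with edgeR 4.0.16 in R 4.3.3 (TMM, filterByExpr, quasi-likelihood test, no covariate), which was tested on simulated data. With 2 libraries per group, an exact permutation test of one value cannot reach a small p and was not run. DESeq2 1.42.0, other normalizations, filters, a stricter p, the replicate block and fits without each library were alternatives. Exon length is the union of a gene's exons in GENCODE M21. The counts of libraries with the same label differed by more than sampling noise, with a chi-square per gene of 12.4 in WT and 35.1 in cKO. Named genes are called members, the 6 members at each end of the log2 fold changes, the 3 with the highest level per class, a fixed list of members with a textbook role, and called partner or marker genes. Some members under this rule are not reported here by name. Kcnd1, Kcnk4, Kcnc2, Kcnmb2, Kcnip2, Kcnab3, Kcnh8, Kcnmb4, Kcnh7, Kcna3, Kcnj3, Kcnj9, single partner genes and the neuronal markers were picked once their values were known. The members and lists were chosen with earlier results of these data known.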

Additional observations from a re-analysis of the deposited data

How the results depend on the processing

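In fits that left out a library, the lone sample of its group is assumed to vary like the other group. The number of members called (1) was 0 with DESeq2, over genes that reach 10 counts in all libraries and at an unadjusted p of at most 0.01, and ran from 0 to 1 with single libraries left out. The member called was Kcne2 without WT 2 and Kcnj3 without cKO 1. Without WT 1 it was Kcnk4, which passed the filter there only through WT 2. Over all genes, the 131 called became 65 with DESeq2, 72 over genes that reach 10 counts in all libraries, 405 with no filter, 14 at an unadjusted p of at most 0.01 and 104 to 531 with single libraries left out. With no filter 65 genes, Kcne2 among them, had an adjusted p under 0.05. With the replicate block 5 genes had one, and Kcne2 was not among them. Fits without WT 1, WT 2 or cKO 1 also gave such genes, and the other settings did not. Partner genes called ran from 0 to 1 without single libraries. Members with both cKO libraries above both WT libraries numbered 2 with upper-quartile scaling, in place of 1, and those below numbered 13 to 15 over the scalings and filters tried. Trying these settings on both counts was chosen after seeing the data. The members' median log2 fold change ran from -0.21 to -0.09 without single libraries and stayed below 0 under every alternative. Of the 20 members with the highest level, 18 were shared when the longest transcript gave the length. The cause of these changes was not tested.

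Both groups carry replicate numbers 1 and 2, without a source that pairs the libraries by them. Deviations of same-numbered libraries correlated with a coefficient of 0.139 across genes. With the replicate number as a block, 208 genes were called, Kcne2 among them at a log2 fold change of -2.65, and Kcna1 moved to -0.036.

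Of 580 refitted log2 fold changes of 53 named genes, 529 kept their direction and side of the thresholds and 34 changed sign. Offsets corrected for exon length turned Kcnc1 to 0.022. With single libraries left out, the genes that changed sign ranged as follows: Col1a2 (-2.36 to 0.21), Dpp6 (-0.42 to 0.055), Kcna1 (-0.76 to 0.61), Kcna2 (-0.54 to 0.080), Kcna3 (-0.98 to 0.52), Kcnab2 (-0.17 to 0.26), Kcnb2 (-0.68 to 0.076), Kcnc1 (-0.17 to 0.070), Kcnd1 (-0.091 to 0.047), Kcnd3 (-0.66 to 0.028), Kcne2 (-4.30 to 1.24), Kcng1 (-0.15 to 0.22), Kcnh2 (-0.27 to 0.29), Kcnh4 (-0.72 to 0.11), Kcnh7 (-0.77 to 0.26), Kcnj10 (-0.047 to 0.31), Kcnj3 (-1.80 to 0.23), Kcnj9 (-0.36 to 0.43), Kcnk10 (-0.0023 to 0.12), Kcnk2 (-0.28 to 0.018), Kcnk5 (-0.013 to 0.38), Kcnma1 (-0.48 to 0.0049), Kcnn2 (-0.099 to 0.33), Kcnq3 (-0.55 to 0.22), Kcnv1 (-0.74 to 0.29). Other members and Abcc9 kept their sign over a wide range: Abcc9 (-0.73 to -0.33), Kcna6 (0.021 to 0.26), Kcnc2 (-0.71 to -0.32), Kcnf1 (-0.45 to -0.13), Kcnh8 (-0.47 to -0.18), Kcnip1 (-0.26 to -0.023), Kcnip3 (0.026 to 0.20), Kcnk3 (0.081 to 0.28), Kcnmb2 (-0.77 to -0.12), Kcnmb4 (-0.58 to -0.083) and Kcnn1 (-0.52 to -0.21). Genes with few reads, such as Kcnip4, Kcnh6 and Kcne4, had standard errors of 0.44 to 0.52. Some with more reads had similar ones, such as Kcna1 (0.46) and Kcna3 (0.51). The part of depth in these errors was not tested.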
